A study of Mus musculus with 25 samples.

Results

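To examine H3K27me3 over the LIM homeobox genes of regenerating myofibers, the peaks assigned to 10 members of the family (Lhx1, Lhx2, Lhx3, Lhx4, Lhx5, Lhx6, Lhx8, Lhx9, Isl1 and Isl2) were taken from 12 chromatin immunoprecipitation sequencing (ChIP-seq) peak lists by gene symbol. All 10 genes were found, and they held 422 of 34244 H3K27me3 peaks, among 6092 genes with a peak in at least 1 list. The myofibers came from the mouse tibialis anterior muscle at 14 days post injury (dpi) with BaCl2, and were of 4 genotypes with 3 libraries each. Wild-type is the control. The mfn2-/- genotype lacks mitofusin 2, which starts the fusion of mitochondria at their outer membrane, and vhl-/- lacks the E3 ligase component that recognizes HIF1α. HIF1dPA expresses a proline-to-alanine HIF1α that VHL does not recognize. Per the labels, the mice carried a mito-Dendra2 reporter allele under a Pax7-Cre(ERT2) driver, wild-type included, and were given tamoxifen before injury, so recombination starts in muscle stem cells and a dissected fiber may also hold nuclei that did not recombine. The animals' age is not given in the labels.

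LIM homeobox genes encode transcription factors with a pair of zinc-binding LIM domains and a homeodomain, and they specify cell identity during development, among others in motor neurons, the forebrain, the pituitary, the limb and the gonad. The 10 genes form 5 paralogous pairs, Lhx2 with Lhx9, Lhx3 with Lhx4, Isl1 with Isl2, Lhx1 with Lhx5, and Lhx6 with Lhx8. H3K27me3 is deposited by Polycomb repressive complex 2 (PRC2) and typically lies as broad domains, often over CpG-rich sequence, across developmental regulators that a differentiated cell does not use. H3K9me3, measured in the same genotypes, marks mostly heterochromatin and repeats.

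The lists differ in length, and this touches every comparison with HIF1dPA. Wild-type, mfn2-/- and vhl-/- lists held 3358 to 4035 peaks, while HIF1dPA lists held 482 to 501. The lists carry no read totals, so depth is unknown, and genotype and list length cannot be told apart for HIF1dPA. Values were therefore also computed without HIF1dPA, as a share of the base pairs that a list covers, and in the 482 strongest peaks of each list. In mfn2-/- lists 30.0% to 30.3% of peaks were on the X chromosome, against 0.146% to 1.24% in the other lists. All 10 genes are autosomal, while the share of list length counts base pairs on all chromosomes. Shares of genes given beside the members also count genes on all chromosomes, except where autosomal peaks are named. With score percentiles taken among autosomal peaks, 7 of the 10 genes had an exact p under 0.05 over the 4 genotypes (22.9% of 2184 genes) and none after adjustment, the same counts of members as with all peaks, and for covered length the part of this difference was not tested. Of 8 myofiber markers, none had an H3K27me3 peak. Peaks were listed for 2 of 5 muscle stem cell markers (Pax7 and Myf5), 1 of 4 endothelial (Tek), 1 of 4 immune (Ptprc) and 1 of 4 fibro-adipogenic markers (Pdgfra, in 9 lists). The share of all annotated genes with a peak in any list was not computed, so the marker counts are a description.

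The promoters of 6 of the genes are shown because they span the range of CpG content in the family and of peak coverage at the start site. Each line gives the 250 bases upstream of the outermost start in the RefSeq promoter table (GRCm38.p6, the assembly of mm10) on the gene's own strand, 5′ to 3′, with every CpG in capitals. The windows lie at chr1:138842445-138842694 (minus strand, Lhx9), chr2:38339031-38339280 (plus, Lhx2), chr1:155742028-155742277 (minus, Lhx4), chr13:116309689-116309938 (minus, Isl1), chr11:84525535-84525784 (minus, Lhx1) and chr3:154330561-154330810 (minus, Lhx8).
Lhx9: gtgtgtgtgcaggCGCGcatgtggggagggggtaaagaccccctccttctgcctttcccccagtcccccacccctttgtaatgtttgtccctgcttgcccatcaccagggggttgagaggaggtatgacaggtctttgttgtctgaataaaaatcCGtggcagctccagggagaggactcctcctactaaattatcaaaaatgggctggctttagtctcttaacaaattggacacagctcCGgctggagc
Lhx2: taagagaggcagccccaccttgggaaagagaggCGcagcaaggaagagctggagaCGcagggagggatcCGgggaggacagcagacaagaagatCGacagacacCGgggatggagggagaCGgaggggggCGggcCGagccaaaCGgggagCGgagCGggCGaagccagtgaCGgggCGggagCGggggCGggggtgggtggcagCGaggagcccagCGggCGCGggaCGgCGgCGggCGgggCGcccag
Lhx4: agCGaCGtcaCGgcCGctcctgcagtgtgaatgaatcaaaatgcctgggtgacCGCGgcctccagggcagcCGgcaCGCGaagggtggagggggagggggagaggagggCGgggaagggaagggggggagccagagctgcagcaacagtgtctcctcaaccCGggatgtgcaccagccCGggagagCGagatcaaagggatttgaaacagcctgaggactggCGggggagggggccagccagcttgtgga
Isl1: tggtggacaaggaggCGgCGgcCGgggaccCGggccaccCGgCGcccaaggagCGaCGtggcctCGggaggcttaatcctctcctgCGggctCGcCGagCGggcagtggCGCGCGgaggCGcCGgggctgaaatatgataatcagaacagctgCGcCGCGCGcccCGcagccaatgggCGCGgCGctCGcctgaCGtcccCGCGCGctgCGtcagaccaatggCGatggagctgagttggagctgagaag
Lhx1: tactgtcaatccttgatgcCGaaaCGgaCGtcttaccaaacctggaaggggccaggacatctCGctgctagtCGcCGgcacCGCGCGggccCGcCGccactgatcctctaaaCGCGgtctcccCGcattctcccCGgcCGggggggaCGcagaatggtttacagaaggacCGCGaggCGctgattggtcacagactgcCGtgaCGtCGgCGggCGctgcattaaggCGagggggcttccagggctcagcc
Lhx8: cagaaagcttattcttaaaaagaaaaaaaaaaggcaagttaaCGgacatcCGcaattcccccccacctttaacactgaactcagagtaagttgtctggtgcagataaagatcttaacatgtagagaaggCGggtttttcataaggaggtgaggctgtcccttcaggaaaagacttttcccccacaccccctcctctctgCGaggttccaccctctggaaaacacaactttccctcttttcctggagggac

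RefSeq promoter windows of 300 bases, which add 50 bases after the start, were matched for 9 of the 10 genes (13 windows, since Lhx2, Lhx3 and Lhx6 have several starts), and Lhx5 was not among them. Most were rich in CpG. The 13 windows held a median of 19 CpG (4 to 37), compared with 7 over all 32851 windows, and 11 of 13 held at least 10, compared with 43.5% of all. Isl1 stood at the top with 37 CpG, and Lhx8 and Lhx9 at the bottom with 4 and 6. The Lhx9 gene as RefSeq annotates it reaches to chr1:138848839, beyond the start used here at chr1:138842444, so its window lies within the gene. The windows of Lhx4, Lhx6 and Isl2 also lie within the annotated gene.

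Windows were counted as reached by a peak whatever gene the authors assigned it to. In the 9 lists other than HIF1dPA, a peak reached the Lhx8 window in 8 lists and the Lhx1 window in 8, but the Isl1 window in only 2. Isl2 and 1 Lhx6 window were reached in 6, Lhx4 and Lhx9 in 5, and each Lhx2 window in 3. Counted this way, 6 of the 13 windows were reached in at least 5 of the 9 lists, as were 0.411% of all windows. HIF1dPA peaks reached only 1 of the 13 windows, at Lhx6, in 2 lists. Some of these peaks belong to neighbouring genes. Peaks assigned to Lhx1 itself reached its window in 0 of the 9 lists, since those there were assigned to Lhx1os, and peaks assigned to Isl2 reached its window in 1 list and those of Gm17226 in the others. The 2 lists with a peak in an Lhx3 window had it assigned to Gm27196. With own peaks alone, 4 of the 13 windows were reached in at least 5 of the 9 lists. At Lhx8 its own peaks reached the window in 7 lists, and at Lhx2, Lhx4, Lhx6, Lhx9 and Isl1 all the peaks in the windows were the gene's own. CpG number and number of lists are plotted for each window as a description.

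**Figure D1:**
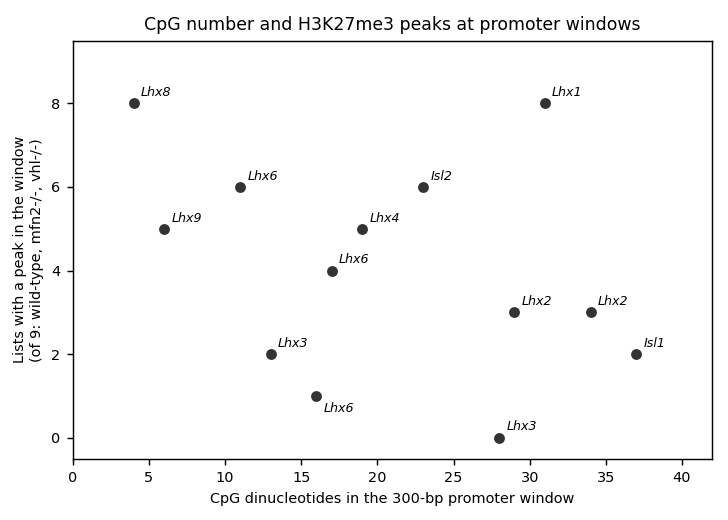
CpG dinucleotides in each 300-bp RefSeq promoter window (x axis) against the number of the 9 wild-type, mfn2-/- and vhl-/- lists with a peak of any gene in the window (y axis). Each point is 1 of 13 windows of 9 genes; Lhx8 with 4 CpG and Lhx1 with 31 both reach 8 lists, while Isl1 with 37 reaches 2.

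H3K27me3 was listed at the LIM homeobox genes in nearly every library. Wild-type and vhl-/- lists each held peaks at all 10 genes, and the mfn2-/- lists at 10, 10 and 9, where the missing gene was Lhx6 in replicate 3. HIF1dPA lists held 6, 4 and 4. The share of all 6092 genes with a peak was 26.5% to 33.9% in the first 9 lists and 7.04% to 7.12% in HIF1dPA lists.

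With lists cut to their 482 strongest peaks, the genes with a peak numbered 8, 7 and 5 in wild-type, 7, 5 and 8 in mfn2-/-, 7, 8 and 9 in vhl-/-, and 6, 2 and 4 in HIF1dPA. The HIF1dPA values then overlapped those of wild-type and mfn2-/-, and lay below every vhl-/- value. The share of all genes with a peak in each cut list is not given here, so these counts describe the members only. The cut was made over peaks on all chromosomes, X included. Counted over lists, all 10 genes had a peak in at least 9 of 12, which 7.30% of genes had, and a gene had a median of 2 lists over all genes and 10 in the family. Lhx4 and Lhx9 had a peak in all 12, as did 0.624% of genes.

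**Figure D2:**
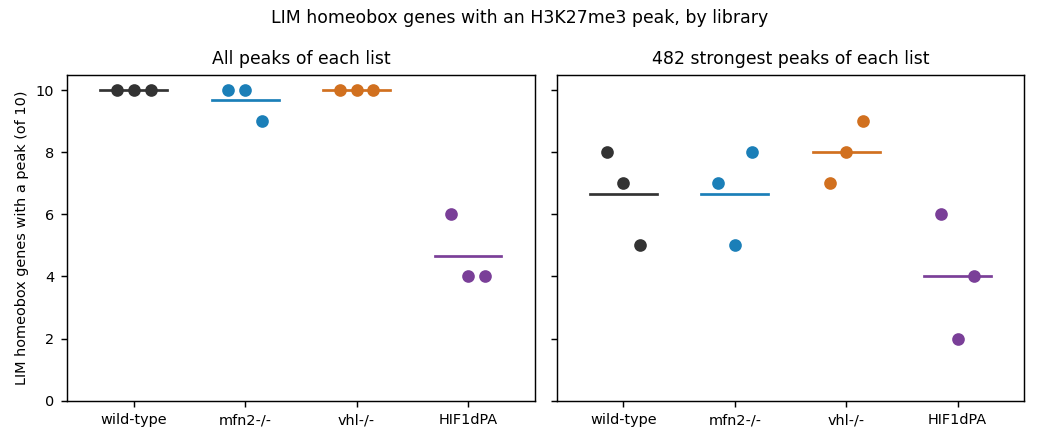
LIM homeobox genes with an H3K27me3 peak, of 10 (y axis), in each of 3 libraries per genotype (points; the bar is the mean), with all peaks (left) and with the 482 strongest peaks of each list (right). HIF1dPA lists hold 6, 4 and 4 on the left, and 6, 2 and 4 on the right.

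The covered length per gene was large. Summed over its peaks, a LIM homeobox gene with a peak had a median of 3416 to 6429 bp covered in the 9 lists, compared with 779 to 1022.5 bp for all genes with a peak, and it had 4.1 to 5.4 peaks on average, compared with 1.81 to 2.08. In HIF1dPA lists the median was 840 to 1131.5 bp, against 615.5 to 634 bp. The family took 1.43% to 1.83% of all base pairs listed in the 9 lists and 1.10% to 1.63% in HIF1dPA lists. The share was 1.69% to 1.78% in vhl-/- libraries, 1.45% to 1.58% in wild-type and 1.43% to 1.83% in mfn2-/-. On this scale vhl-/- lay above wild-type and mfn2-/- overlapped both. The base pairs listed include the X chromosome, which held 30.0% to 30.3% of mfn2-/- peaks. A share of autosomal base pairs was not computed, so the place of mfn2-/- may depend on this.

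By the authors' feature classes, 275 of the 422 peaks (65.2%) were at promoters, which reach 3 kb from a start, compared with 47.2% of all peaks. Genes differed in this. Lhx8 had 92.1% of its 38 peaks at promoters and Lhx2 84.8% of 66, while Lhx4 had 36 of 72 in introns and Lhx9 had 22 of 63 in the 3′ UTR. Isl1 had 20 of 67 in distal intergenic sequence.

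Across the 4 genotypes, the base pairs covered per gene were tested with an exact permutation test over the 12 libraries, adjusted by Benjamini-Hochberg over the 2394 genes with a peak in at least 3 lists. Lhx9 and Lhx2 differed at an adjusted p under 0.05 (1.84% of genes tested did), and 9 of the 10 genes had an unadjusted p under 0.05, all except Lhx3 (33.2% of genes did). The short HIF1dPA lists enter both counts. Without them, none of the 10 genes and none of 2294 genes tested passed after adjustment, and Lhx9 and Lhx2 alone had an exact p under 0.05 (17.6% of genes did).

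Lhx9, a regulator of gonad, limb and forebrain development, had fewer base pairs covered in every mfn2-/- library than in any wild-type library. It had more base pairs covered in every vhl-/- library than in any wild-type library. Its peaks covered 8177, 8297 and 8436 bp in the wild-type libraries, 5217, 4958 and 6516 bp in mfn2-/-, 14453, 10845 and 11277 bp in vhl-/-, and 908, 1502 and 1391 bp in HIF1dPA. No genotype overlapped another. Every wild-type library lay above every mfn2-/- library in 10.1% of genes tested, and every vhl-/- library above every wild-type library in 6.22%. The wild-type mean was 8303 ± 129.6 bp (SD, n = 3), against 12192 ± 1970.2 bp for vhl-/-, 5564 ± 835 bp for mfn2-/- and 1267 ± 316 bp for HIF1dPA.

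The 4 genotypes differed at Lhx9 with an exact permutation p of 6.49e-05, the smallest that the design can give, and an adjusted p of 0.0389. Without HIF1dPA the exact p was 0.00357, again the smallest possible, and the adjusted p was 0.219. The call was also lost without mfn2-/- replicate 1 (adjusted p = 0.0545, exact permutation test) and without any 1 HIF1dPA replicate (0.0615 to 0.0765). As a share of list length, Lhx9 took 2320 to 2794 bp per listed Mb in wild-type, 1741 to 2128 in mfn2-/-, 2667 to 3839 in vhl-/- and 2741 to 4248 in HIF1dPA. On that scale mfn2-/- stayed below every other library, wild-type overlapped vhl-/- and HIF1dPA, and the adjusted p was 0.131. The scale counts the X chromosome, which held 30.0% to 30.3% of mfn2-/- peaks. A share of autosomal base pairs was not computed, so the place of mfn2-/- may depend on this.

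The strongest Lhx9 peak ranked 84, 34 and 97 by score in wild-type, 156, 28 and 118 in mfn2-/-, and 270, 99 and 25 in vhl-/-. Those ranks are percentiles of 93.1 to 99.3 of the list, where 100 is the strongest, while the shorter HIF1dPA lists placed it at 72.0, 90.4 and 86.6. In 6 of the 9 longer lists this peak lay in the 3′ UTR, and in the other 3 at the promoter.

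The Lhx9 peaks lay between chr1:138826266 and chr1:138849517, spanning most of the gene as RefSeq annotates it, which reaches beyond the start used here. The most widely shared stretch was a run of 507 bp at chr1:138830978-138831484 in the 3′ UTR, 10960 to 11466 bp downstream of the RefSeq start, covered in 8 of the 9 lists. Of the 21241 bp covered in any list, 8921 bp were covered in at least 5 of the 9 lists, and all 3416 bp covered in HIF1dPA lists were also covered in another genotype. The vhl-/- libraries held 12, 7 and 9 Lhx9 peaks, the wild-type libraries 5, 5 and 7, and the mfn2-/- libraries 5, 3 and 6. The longest single Lhx9 peak measured 2350, 2841 and 3103 bp in vhl-/- and 4060, 2531 and 1965 bp in wild-type. In mfn2-/- it measured 1633, 3119 and 1952 bp, so by longest peak these genotypes overlapped.

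**Figure D3:**
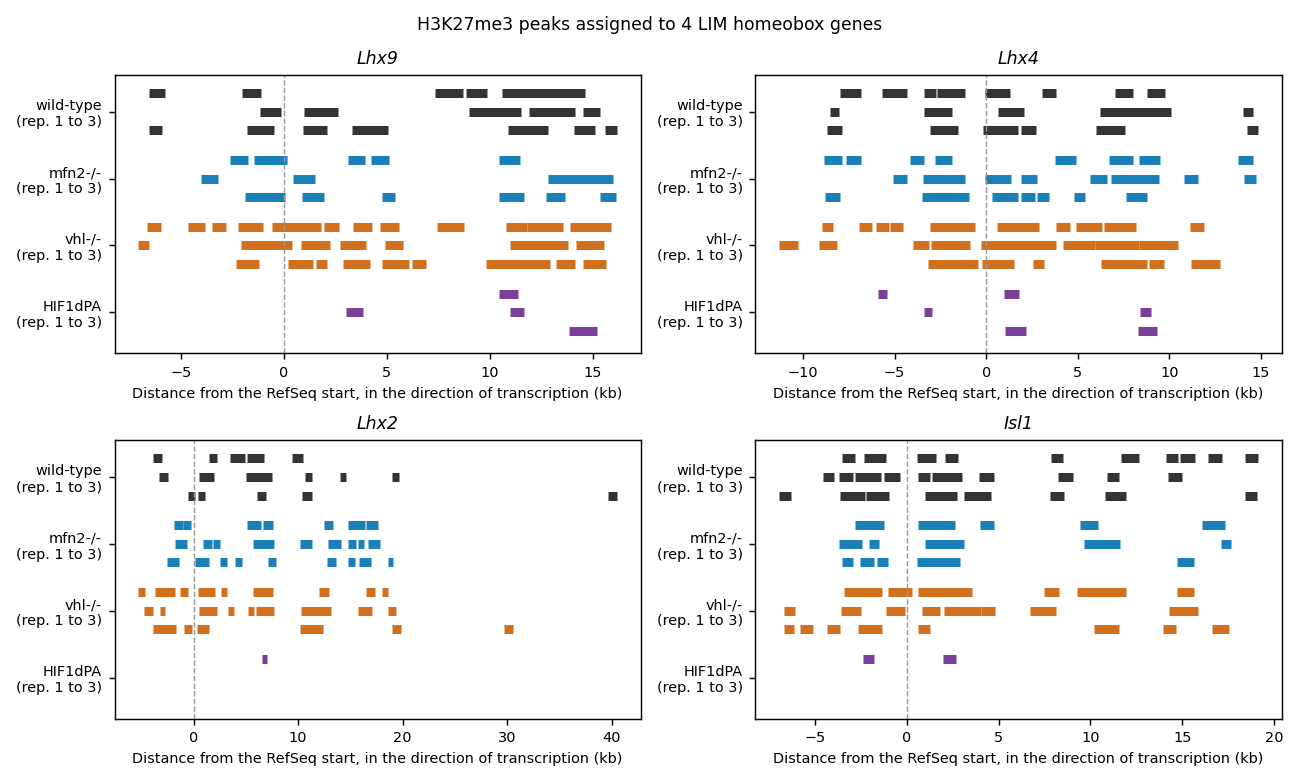
H3K27me3 peaks assigned to Lhx9, Lhx4, Lhx2 and Isl1 (bars) in the 3 libraries of each genotype (rows, replicates 1 to 3 from top to bottom), by distance from the outermost RefSeq start in kb, positive in the direction of transcription. Lhx9 peaks gather at 10 kb and beyond as well as at the start (dashed line), Lhx4 peaks of all 9 longer lists share a stretch upstream of the start, and HIF1dPA rows hold few bars.

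Lhx2 is the paralogue of Lhx9 and a regulator of eye, forebrain and hair follicle development. It had more base pairs covered in every mfn2-/- and vhl-/- library than in any wild-type library. Its peaks covered 5820, 6742 and 3999 bp in wild-type, 7507, 9518 and 7739 bp in mfn2-/-, 9744, 10851 and 7901 bp in vhl-/-, and 517, 0 and 0 bp in HIF1dPA. Each mfn2-/- and each vhl-/- library lay above each wild-type library, and mfn2-/- and vhl-/- overlapped. Every mfn2-/- library lay above every wild-type library in 9.61% of genes tested, and every vhl-/- library in 6.22%. Both shares include X-linked genes, and 30.0% to 30.3% of mfn2-/- peaks lay on X. A share among autosomal genes alone is not given here.

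Mean covered length at Lhx2 was 5520.3 ± 1396 bp for wild-type (SD, n = 3), 9499 ± 1490.2 bp for vhl-/- (1.721 times wild-type), 8255 ± 1100.2 bp for mfn2-/- (1.495 times) and 172 ± 298 bp for HIF1dPA. The 4 genotypes differed with an exact permutation p of 0.00039 and an adjusted p of 0.0444. Without HIF1dPA the exact p was 0.0214 (adjusted p = 0.219). The call was lost without wild-type replicate 3 (adjusted p = 0.0511, exact permutation test), mfn2-/- replicate 1 (0.0545), vhl-/- replicate 2 (0.0513) or any 1 HIF1dPA replicate (0.071 to 0.0765). Wild-type against the 6 mfn2-/- and vhl-/- libraries gave a difference of -3356 bp, with an exact two-sided p of 0.0238 and an adjusted p of 0.853 (4.36% of genes had such a p).

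The higher values of Lhx2 in both mutants were also seen relative to list length. Lhx2 took 1325 to 2197 bp per listed Mb in wild-type, 2505 to 3640 in mfn2-/- and 2282 to 2669 in vhl-/- libraries, with no overlap between wild-type and either. HIF1dPA replicate 1 took 1561 and the others 0. The exact p over 4 genotypes on this scale was 0.00481 (adjusted p = 0.108), against a background of 22.5% of genes under 0.05.

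The order of Lhx2 and Lhx9 differed between the genotypes. Lhx9 covered more base pairs than Lhx2 in 3 of 3 wild-type libraries, fewer in 3 of 3 mfn2-/- libraries and more in 2 of 3 vhl-/- libraries. The difference between the paralogues was not tested across genotypes. The Lhx2 gene spans 30467 bp and Lhx9 23654 bp. No base of Lhx2 was covered in all 9 lists, and the best-shared run, 329 bp at chr2:38345386-38345714, was covered in 7.

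Lhx4 and Lhx3 both act in pituitary and motor neuron development, and they differed sharply in covered length. Lhx4 peaks covered 8812, 7914 and 7333 bp in wild-type, 7969, 10303 and 8021 bp in mfn2-/-, 12103, 15375 and 10027 bp in vhl-/-, and 1341, 1036 and 2205 bp in HIF1dPA. The vhl-/- values overlapped mfn2-/- by 1 library and lay above all wild-type values (6.22% of genes tested). Means were 8020 ± 745 bp, 8764 ± 1333 bp, 12502 ± 2696 bp and 1527 ± 606 bp in that order (SD, n = 3 each).

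Lhx4 had an exact permutation p of 0.000974 over the 4 genotypes and an adjusted p of 0.0507, just above the threshold. Without HIF1dPA the exact p was 0.0536. Relative to list length Lhx4 was higher in HIF1dPA, with 2930 to 6380 bp per listed Mb, than in wild-type, with 2429 to 2579, and no library overlapped (1% of genes showed this). The strongest Lhx4 peak stood at the percentiles 89.4, 70.7 and 98.8 of the HIF1dPA lists, and in replicate 3 Lhx4 ranked 9 of 434 genes by covered length.

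A stretch of 853 bp at chr1:155743889-155744741, 1862 to 2714 bp upstream of the printed Lhx4 start, was covered in all 9 lists and was the longest such run in the family. It lies within the gene as RefSeq annotates it, which spans 53696 bp and reaches beyond that start. HIF1dPA peaks covered 3178 bp of Lhx4, of which 2472 bp were covered in at least 5 of the other 9 lists.

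Lhx3 peaks covered 478, 2142 and 1415 bp in wild-type, 2964, 932 and 1775 bp in mfn2-/-, 1657, 1366 and 2830 bp in vhl-/-, and 0 bp in the HIF1dPA libraries. Wild-type, mfn2-/- and vhl-/- overlapped throughout, and the exact p over the 4 genotypes was 0.0603. Lhx4 covered more than Lhx3 in all 12 lists. The Lhx3 gene is shorter, at 8038 bp, and no base of it was covered in more than 4 of the 9 lists.

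**Figure D4:**
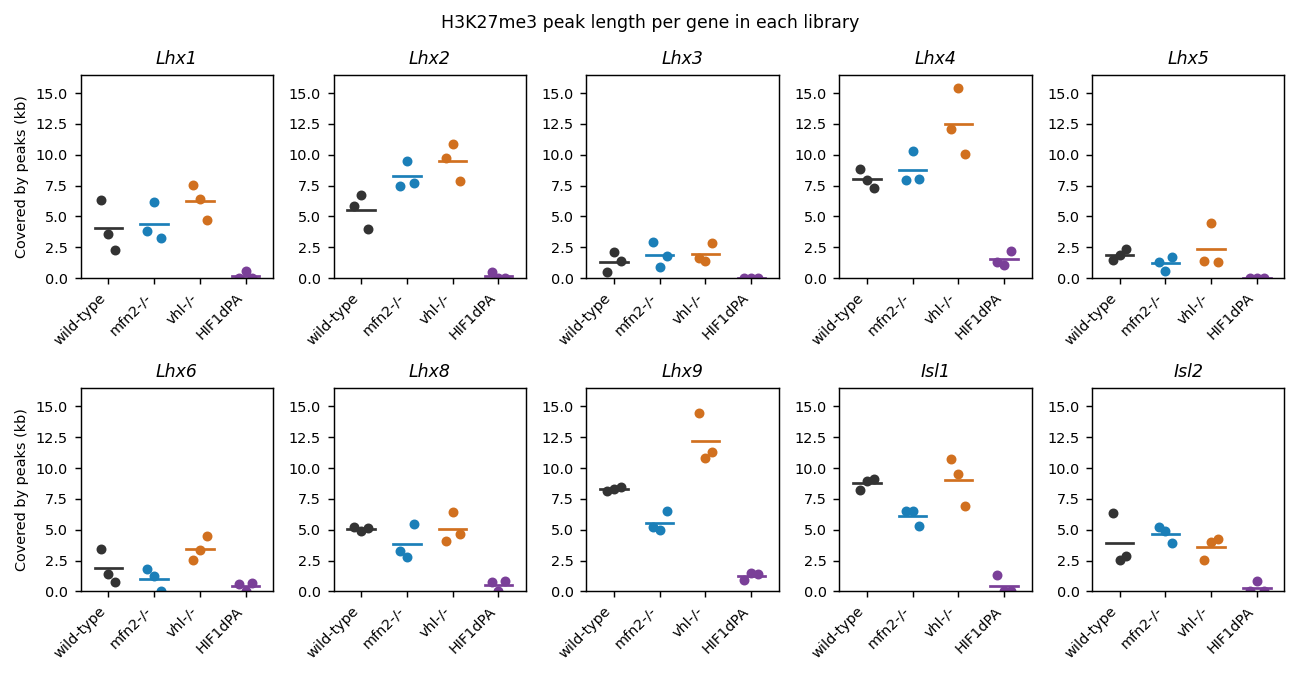
Base pairs covered by H3K27me3 peaks (kb, y axis) at each of the 10 LIM homeobox genes in 3 libraries per genotype (points, replicates 1 to 3 from left to right; the bar is the mean). At Lhx9 the genotypes do not overlap, at Lhx2 wild-type lies below mfn2-/- and vhl-/-, and HIF1dPA points lie below every wild-type point at all 10 genes.

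Isl1, a motor neuron and cardiac progenitor factor, was covered over 8233, 8979 and 9128 bp in wild-type, 6539, 6511 and 5274 bp in mfn2-/-, 10707, 9483 and 6948 bp in vhl-/-, and 1307, 0 and 0 bp in HIF1dPA. The mfn2-/- values lay below all wild-type values (10.1% of genes tested) and all vhl-/- values (14.4%), and wild-type and vhl-/- overlapped. Mean length was 8780 ± 479.5 bp in wild-type and 6108 ± 722 bp in mfn2-/- (SD, n = 3 each), 0.696 times wild-type. The exact p over the 4 genotypes was 0.000974 (adjusted p = 0.0507), and 0.0536 without HIF1dPA.

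As a share of list length, Isl1 in wild-type, at 2336 to 3023 bp per listed Mb, overlapped mfn2-/- at 1723 to 2490. List length counts the X chromosome, and a share of autosomal base pairs was not computed. The score ranks went the other way, since the strongest Isl1 peak ranked 57, 76 and 69 in mfn2-/- and 366, 130 and 132 in wild-type lists. In percentiles of the list, mfn2-/- lay above wild-type without overlap, as in 10% of genes. That share includes X-linked genes, and one among autosomal genes alone is not given here. A run of 267 bp at chr13:116308444-116308710, 978 to 1244 bp downstream of the start, was covered in all 9 lists, and only 43.9% of the covered bases of Isl1 lay inside the gene.

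Isl2, which acts with Isl1 in motor neurons, was covered over 6395, 2525 and 2833 bp in wild-type, 5250, 4880 and 3893 bp in mfn2-/-, 2512, 4007 and 4288 bp in vhl-/-, and 0, 807 and 0 bp in HIF1dPA. The 3 longer-listed genotypes overlapped. Isl1 covered more than Isl2 in each of the 9 lists. The strongest Isl2 peak ranked between 36 and 1268, and both extremes were wild-type libraries, so the spread between replicates was wide.

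Lhx1 and Lhx5 act in head and kidney formation and in forebrain and spinal interneurons. Lhx1 peaks covered 6351, 3602 and 2276 bp in wild-type, 3787, 6170 and 3237 bp in mfn2-/-, 7559, 6434 and 4708 bp in vhl-/-, and 0, 561 and 0 bp in HIF1dPA. Wild-type, mfn2-/- and vhl-/- overlapped in length. By score, the strongest Lhx1 peak ranked 21, 11 and 30 in the vhl-/- lists, 263, 69 and 367 in wild-type, and 319, 29 and 316 in mfn2-/-. In percentiles of the list, vhl-/- at 99.20 to 99.75 lay above wild-type at 89.34 to 98.03, as in 4.97% of genes. It also lay above mfn2-/- at 90.96 to 99.17, as in 8.94% of genes, with mfn2-/- replicate 2 close to the lowest vhl-/- value.

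In all 9 lists a run of 259 bp at chr11:84517745-84518003, at the 3′ end of Lhx1, carried a peak. Lhx1os, the neighbouring antisense gene, was assigned 18 peaks in the same 9 lists, so the authors' assignment splits a longer marked region between both genes. Lhx5 peaks covered 1470, 1844 and 2341 bp in wild-type, 1334, 593 and 1724 bp in mfn2-/-, 1384, 4430 and 1339 bp in vhl-/-, and 0 bp in HIF1dPA libraries, with overlap between the first 3 genotypes. Lhx1 covered more than Lhx5 in 8 of the 9 lists.

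Lhx8 and Lhx6 specify cholinergic and GABAergic neurons of the ventral forebrain. Lhx8 peaks covered 5253, 4913 and 5119 bp in wild-type, 3311, 2815 and 5451 bp in mfn2-/-, 4063, 6424 and 4686 bp in vhl-/-, and 772, 0 and 872 bp in HIF1dPA. Wild-type libraries lay close together and inside the range of vhl-/-. The HIF1dPA peaks of Lhx8 stood at the percentiles 93.4 and 94.6 of their lists, against 82.6 to 97.3 in the other 9.

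Lhx6 peaks covered 3400, 1436 and 777 bp in wild-type, 1821, 1251 and 0 bp in mfn2-/-, 2563, 3344 and 4513 bp in vhl-/-, and 567, 0 and 669 bp in HIF1dPA. Every vhl-/- library lay above every mfn2-/- library (14.4% of genes), and wild-type overlapped both. The strongest peak stood at the percentiles 69.4, 41.8 and 28.5 of the wild-type lists, and at 82.6 and 91.8 in the HIF1dPA lists that held one.

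**Figure D5:**
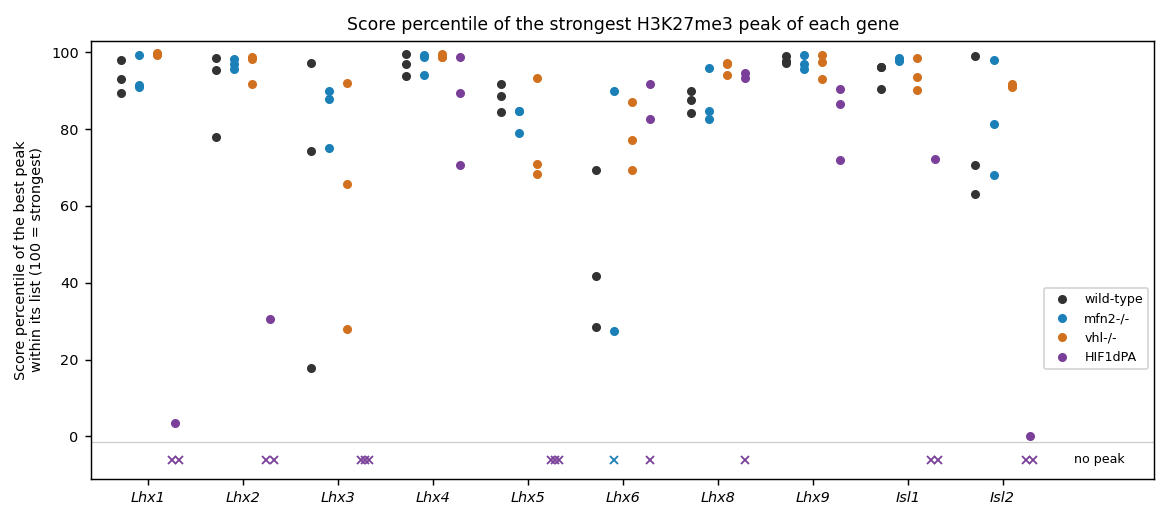
Score percentile of the strongest H3K27me3 peak of each gene within its own list (y axis; 100 is the strongest) in 3 libraries per genotype (points), with libraries without a peak marked by a cross under the line. Lhx9 and Lhx4 stay above 70 in all 12 lists, while Lhx3 and Lhx6 spread from under 30 to over 90.

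Counted over the 10 genes, every vhl-/- library lay above every wild-type library at Lhx2, Lhx4 and Lhx9 (6.22% of genes tested). Every wild-type library lay above every mfn2-/- library at Lhx9 and Isl1 (10.1%), and every mfn2-/- library above every wild-type library at Lhx2 (9.61%). Relative to list length the first set was Lhx2 and Lhx4 (4.43% of genes), the second Lhx9 alone (8.35%), and the third Lhx2 and Lhx4 (10.3%). The shares of genes count all chromosomes, X included, and so does list length. With 3 libraries against 3, the smallest exact p is 0.1, so no pair of genotypes can pass 0.05. Every wild-type library lay above every HIF1dPA library at all 10 genes (28.9% of genes tested), and relative to list length at Lhx3 and Lhx5 (16.7%). Every mfn2-/- library lay above every HIF1dPA library at 9 genes, all but Lhx6 (27.4%), and every vhl-/- library at all 10 (33%).

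Presence alone separated few genes. The shares of all genes given here include X-linked genes. Lhx3 and Lhx5 had a peak in all 3 lists of wild-type, of mfn2-/- and of vhl-/- and in none of HIF1dPA, a pattern found in 6.39%, 6.83% and 7.63% of genes in that order. No member had a peak in all 3 lists of 1 of the longer-listed genotypes and in none of another, a pattern shown by 1.51% and 3.32% of genes between wild-type and mfn2-/- (higher in the first and in the second), 0.427% and 0.607% between wild-type and vhl-/-, and 3.28% and 1.67% between mfn2-/- and vhl-/-.

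Wild-type libraries were also compared with the 9 mutant libraries together, as the question of a shared change in the mutants asks. No member had an exact two-sided p under 0.05 (9.15% of genes did, and none of 2394 after adjustment). The lowest p was at Isl1, where wild-type was higher by 3583 bp (exact permutation p = 0.164, adjusted p = 0.711). At Lhx2 the difference was -455 bp (p = 0.841, exact permutation test), since mfn2-/- and vhl-/- lay above and HIF1dPA below wild-type.

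In score percentiles, which place the strongest peak of a gene within its list, none of the 10 genes differed over the 4 genotypes after adjustment (none of 2394 genes did), with a lowest adjusted p of 0.0852 in the exact permutation test. An unadjusted p under 0.05 was found for 7 of the 10 genes (29.1% of genes), and for none of them without HIF1dPA (15.1% of 2294 genes). Wild-type against all mutants gave no member with such a p (9.23% of genes).

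The positions of the peaks were more alike between libraries than those of other genes. Within wild-type, the Jaccard index of 2 libraries, their common covered bases divided by all bases covered in either, was 0.301 on average for the family and 0.152 for all peaks. Within mfn2-/- it was 0.290 against 0.133, within vhl-/- 0.369 against 0.190, and within HIF1dPA 0.0876 against 0.0438. Wild-type with vhl-/- reached 0.312 and wild-type with mfn2-/- 0.269, close to the values within a genotype. Longer domains overlap more readily, and the index was not corrected for length.

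Relative to the RefSeq starts, 298 of 403 peaks lay wholly downstream, 85 wholly upstream and 20 across the start, and 54.3% came within 5000 bp of it. At Lhx4, Lhx6, Lhx9 and Isl2 an upstream peak can still lie within the annotated gene, which reaches beyond the start used. At all 8 genes with a HIF1dPA peak, 100% of the bases in those peaks were covered in another genotype. The same share was not computed for other genes, so whether this is particular to the family is not known. Near several genes, peaks were assigned to noncoding neighbours within 50000 bp, such as Gm27199 at Lhx5 (14 peaks), AI606473 at Lhx8 (13 peaks) and Gm17226 at Isl2 (9 peaks), while no such peak lay near Lhx4, Lhx6, Lhx9 or Isl1.

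Of the family outside the 10 genes, Lmx1a and Lmx1b, which pattern dorsal limb and midbrain dopaminergic neurons, had a peak in 11 and 9 lists. Neither passed the adjusted test, and 1 of them, Lmx1a, had an exact p under 0.05 (p = 0.00838). Among 14 transcription factors that act with LIM homeobox proteins, 12 had a peak in some list and 7 in at least 9 lists, as did 7.30% of all genes. Pitx1, a pituitary and hindlimb factor, passed the adjusted test over 4 genotypes (exact permutation p = 0.00013, adjusted p = 0.0415), as 1 of 10 tested, and 7 of 10 had an exact p under 0.05. Of all genes tested, 1.84% passed the adjusted test and 33.2% had such a p. These counts include the short HIF1dPA lists, without which no gene of 2294 passed.

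Genes in a fixed list of LIM domain cofactors were looked up in the same lists. Of 10 cofactor genes, 4 had any peak, Lmo1 in 5 lists, Lmo3 in 2, Lmo4 in 1 and the X-linked Rlim in the 3 mfn2-/- lists, and neither Ldb1 nor Ldb2, the shared LIM cofactors, had one. None of the cofactors passed the adjusted test, and 1 of 2 tested, Rlim, had an exact p under 0.05. Of the 4 PRC2 genes, Ezh2 had a peak in 1 list. The share of all annotated genes with a peak in any list was not computed, so the counts for these lists are a description.

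The genes most like the family in covered length over the 12 lists, by Spearman correlation with the summed length of the 10 genes, were Sox14 (0.967), Rimklb (0.944), Gm26688 (0.937), Gm15042 (0.930) and Prdm8 (0.928). All these values share the short HIF1dPA lists, so the values are a description. Sox14 covered 4620, 4529 and 3763 bp in wild-type, 2348, 4388 and 2762 bp in mfn2-/-, 7108, 7696 and 5792 bp in vhl-/-, and 0, 0 and 1090 bp in HIF1dPA. Like Lhx2, Lhx4 and Lhx9, it had more base pairs covered in every vhl-/- than in every wild-type library (6.22% of genes tested). Sox14 was picked by its correlation with the members over these same lists, so this likeness is no separate evidence.

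Few H3K9me3 peaks were assigned to the family. Of 20998 H3K9me3 peaks in 12 lists, 2 were assigned to a member, both to Isl1 and both distal intergenic. One lay in wild-type replicate 2 at chr13:116239674-116240158 with a score of 59.95, and the other in HIF1dPA replicate 2 at chr13:116445531-116446117 with a score of 50.52, where the lists begin at 50. Neither overlapped a listed H3K27me3 peak of Isl1. The share of all genes with an H3K9me3 peak was not computed, so whether the low count is particular to the family is not known.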

How the data were processed

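H3K27me3 and H3K9me3 ChIP-seq had been carried out on 3 replicates per genotype, which the study describes as biological. The authors deposited 1 peak list per library, with intervals, a gene, a feature class and a score that the header gives as -10 × log10 of the caller's p-value. The submitters' processing notes name BWA 0.7.5, MACS and deepTools 3.5.0 and the build mm10. Caller settings, duplicates and use of the input are not given in the sources used here. Of peaks classed within 1 kb of a start, 71.9% lay within 1000 bp of a start of that gene in the GRCm38.p6 table.

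A gene's covered length is the union of its peaks in base pairs, with 0 where none is listed. Genes with a peak in at least 3 of 12 lists were tested by exact permutation of libraries (between-group sum of squares over 4 genotypes, two-sided difference for wild-type against mutants), adjusted by Benjamini-Hochberg. Scores grow with depth and were ranked only within a list. All 10 members, related genes fixed in lists, and the 5 genes closest by Spearman correlation were named. Members and lists were chosen with earlier results of these data known. Scripts were tested on simulated data. Alternatives were a score of at least 100, equal list length, assignment by coordinates, promoter classes, joined peaks, no list filter, percentiles among autosomal peaks, the replicate block, leaving out libraries and, added after seeing the data, the share of list length. Python 3.11.15, numpy 2.4.6 and pandas 2.3.3 were used. The wild-type input library was not used here. A further marker list is not reported here.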

Additional observations from a re-analysis of the deposited data

Results flagged for a closer look

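Covered length at Lhx9 differed from wild-type in opposite directions in 2 genotypes. All 3 mfn2-/- libraries lay below all 3 wild-type libraries and all 3 vhl-/- libraries above them, and the vhl-/- mean exceeded the mfn2-/- mean by 6628 bp (exact two-sided permutation p = 0.1, the smallest that 3 libraries against 3 can give). Relative to list length mfn2-/- again lay below wild-type, while wild-type and vhl-/- overlapped. List length includes the X chromosome, where 30.0% to 30.3% of mfn2-/- peaks lay, and the order relative to autosomal base pairs was not tested.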

How the results depend on the processing

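Mean numbers of genes with a peak per list were 10 for wild-type and vhl-/-, 9.67 for mfn2-/- and 4.67 for HIF1dPA. At a score of at least 100 they were 7.33 for wild-type, 8 for vhl-/-, 6.67 for mfn2-/- and 0.333 for HIF1dPA, in equal lists 6.67 for wild-type and mfn2-/- and 8 for vhl-/-, and with promoter classes only 9.33 in wild-type and 9 in mfn2-/-. Leaving out a library gave 4 to 5 in HIF1dPA. The share of all genes with a peak in these alternative settings is not given here, so the mean numbers describe the members only. The count of members passing the adjusted test of covered length over 4 genotypes was 2 (1.84% of genes). It became 0 at equal list length (0.216% of genes), and 0 as a share of list length, with no filter on lists and without HIF1dPA (0% of genes each). It was 1 with promoter classes only (1.31%), 3 at a score of at least 100 (8.6%) or with joined peaks (1.59%), and 4 with assignment by coordinates (3.35%). The cause was not tested. Leaving out a library gave 0 to 4, with 0 without mfn2-/- replicate 1 or any HIF1dPA replicate (0% of genes each). It gave 1 without wild-type replicate 3 (1.59%) or vhl-/- replicate 2 (0.414%), and 4 without vhl-/- replicate 1 (2.74%) or 3 (4.74%). Over 21 alternatives each, adjusted p was 0.0224 to 0.245 for Lhx9 (12 under 0.05) and 0.0224 to 0.315 for Lhx2 (9 under 0.05), and Lhx4 and Isl1, at 0.0507, each fell under 0.05 in 5. Libraries with the same replicate number did not deviate together (mean correlation -0.00606 over 18 pairs, none over 0.1), and with the replicate block 0 members and 0 of 2394 genes passed, and 6 members and 455 genes had a p under 0.05. The block changed no other count of members passing the adjusted test.

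Members with a peak in all 3 lists of a genotype and none of HIF1dPA, 2 for each genotype, numbered 5 (wild-type), 4 (mfn2-/-) and 6 (vhl-/-) at a score of at least 100. At equal list length they numbered 1 in wild-type, 1 in mfn2-/- and 2 in vhl-/-. With promoter classes only they numbered 2 in wild-type, 1 in mfn2-/- and 3 in vhl-/-. With the score of at least 100, 1 member (Lhx5) was in all wild-type and no mfn2-/- list. The share of all genes that did so in these alternative settings is not given here, so the counts describe the members only. For wild-type against all mutants, the sign of the difference changed in 6 of 10 members without HIF1dPA, in 6 at equal list length (Isl1 to -233 bp) and in 4 as a share of list length. Leaving out a library moved the Lhx2 difference to between -1202 and 306 bp, above 0 without wild-type replicate 3 or vhl-/- replicate 1 or 2. In none of these did a member pass. The lists give no read totals, so what depth contributes cannot be separated from genotype.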
